A study of Mus musculus with 4 samples.

Results

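Hif1a, Slc2a1, Hk2, Pfkl, Aldoa, Pgk1, Eno1, Pkm, Ldha and Bnip3, 10 of the 31053 genes listed, were followed by cell class and day in the mouse carotid artery before and after wire injury. They were taken by name. Hif1a encodes the oxygen-sensitive subunit of hypoxia-inducible factor 1, Slc2a1 the glucose transporter GLUT1, and Bnip3 a mitochondrial protein that marks mitochondria for removal. Hk2, Pfkl, Aldoa, Pgk1, Eno1, Pkm and Ldha encode enzymes of the route from glucose to lactate. All 10 were detected, with between 1120 UMIs for Bnip3 and 23407 UMIs for Pkm in the cells kept.

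Glycolysis splits glucose into pyruvate, and lactate dehydrogenase turns pyruvate into lactate so that the route can run with little oxygen. When oxygen is low the HIF-1α protein is no longer broken down, and with its partner ARNT it raises the transcription of the transporter, of most of these enzymes and of Bnip3. The protein is controlled mainly by its breakdown, so the level of Hif1a RNA is not a measure of HIF-1 activity. Activated macrophages, neutrophils and dividing cells are also known for a high use of glucose.

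The study asked how the vessel heals after a wire injury that strips the endothelium and, per its discussion, also disrupts the inner elastic layer. Male C57BL/6 mice were operated on the left carotid at 11 weeks of age, and 1 library each was made from uninjured vessels (day 0) and from vessels taken 3, 7 and 14 days after injury. The mice of all 4 groups were of 1 strain and sex and were fed chow. Per the study's methods, several vessels were pooled for each injury time point, thrombosed vessels were left out, and the tissue was digested by the same enzyme mix before dead cells were removed.

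The 4 libraries held 6161 cell barcodes, of which 5621 were kept. The kept cells of a library had a median of between 4818 and 9481 UMIs (unique molecular identifiers, each counting 1 captured RNA molecule). Cells were put into classes by marker genes that did not include the 10 genes, and 835 cells stayed unnamed. The classes are called "like" a cell type because they were rebuilt from the counts. Of the barcode sequences, 217 occurred in more than 1 library. The fibroblast-like class held 204, 175, 191 and 497 cells at days 0, 3, 7 and 14. The smooth muscle-like class held 17, 116, 82 and 78 cells. The monocyte/macrophage-like class held 3 cells at day 0 and 515, 826 and 183 cells later, so that no change from day 0 could be given for it. The neutrophil-like class was present only at day 3, with 234 cells, and day 7, with 120 cells. In the 8 classes other than the B cell-like class, every marker of the class was detected in each sum of at least 15 cells. Levels (CPM) are UMIs of a gene per 1000000 UMIs, summed over the cells of a class and day. Brackets give exact 95% intervals, which cover counting error only. With 1 library per day, a difference between days and a difference between libraries cannot be told apart, and no test was made. Fewer cells of one kind within a class and less RNA per cell cannot be told apart either.

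The stretches before the transcription starts of 5 of the genes are printed here because the text turns on them. Over all fibroblast-like cells, Pgk1, Eno1 and Ldha were highest at day 3, Hk2 was higher than before injury on all 3 later days, and Bnip3 was lower at days 3 and 7. The sequences are those of RefSeq for GRCm38.p6, each the 250 bases that end just before a listed start, 5′ to 3′ on the strand of the gene. Capitals mark the letters ACGTG and GCGTG, the core that HIF binds, on either strand (CACGT and CACGC on the other). Overlapping cores form CACGTG, a letter run that other factors bind as well.
Pgk1, chrX:106186850-106187099, plus strand: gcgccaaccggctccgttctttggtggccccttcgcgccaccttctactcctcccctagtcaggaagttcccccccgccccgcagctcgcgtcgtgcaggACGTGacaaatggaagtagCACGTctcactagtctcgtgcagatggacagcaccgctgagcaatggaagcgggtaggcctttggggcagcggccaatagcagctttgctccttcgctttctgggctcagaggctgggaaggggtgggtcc
Eno1, chr4:150236947-150237196, plus strand: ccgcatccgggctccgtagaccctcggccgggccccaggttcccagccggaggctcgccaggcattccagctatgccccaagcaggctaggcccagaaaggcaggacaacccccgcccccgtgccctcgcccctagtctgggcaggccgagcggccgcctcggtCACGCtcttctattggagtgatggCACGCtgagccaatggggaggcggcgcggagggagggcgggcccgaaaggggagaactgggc
Ldha, chr7:46845554-46845803, plus strand: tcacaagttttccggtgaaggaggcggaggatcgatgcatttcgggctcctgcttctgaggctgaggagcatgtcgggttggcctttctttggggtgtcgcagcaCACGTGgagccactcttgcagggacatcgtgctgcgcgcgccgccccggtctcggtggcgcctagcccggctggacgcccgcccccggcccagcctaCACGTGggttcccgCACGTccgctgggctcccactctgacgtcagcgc
Hk2, chr6:82774455-82774704, minus strand: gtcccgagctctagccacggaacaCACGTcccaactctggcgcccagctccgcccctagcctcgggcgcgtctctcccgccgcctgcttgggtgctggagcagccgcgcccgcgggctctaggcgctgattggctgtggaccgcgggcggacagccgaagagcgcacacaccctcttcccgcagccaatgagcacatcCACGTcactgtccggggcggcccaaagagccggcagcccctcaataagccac
Bnip3, chr7:138909507-138909756, minus strand: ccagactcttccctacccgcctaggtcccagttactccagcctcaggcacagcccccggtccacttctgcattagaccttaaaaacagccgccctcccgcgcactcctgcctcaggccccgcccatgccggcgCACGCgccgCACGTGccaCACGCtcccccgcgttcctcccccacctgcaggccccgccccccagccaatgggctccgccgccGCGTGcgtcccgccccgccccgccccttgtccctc

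At least 1 such core stood before a start of all 10 genes, where 41.5% of all 27025 genes with a window had one, and in 14 of their 16 listed windows, or 87.5%. They are common letters, since 38.6% of all 32851 windows listed held one. The genes were taken by name and most are known to be raised by HIF, so the excess over all genes is no finding of these data. For Aldoa and for Eno1, some listed windows overlap and share the same matches. A match is a description of the letters and not of binding, which was not measured.

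**Figure D1:**
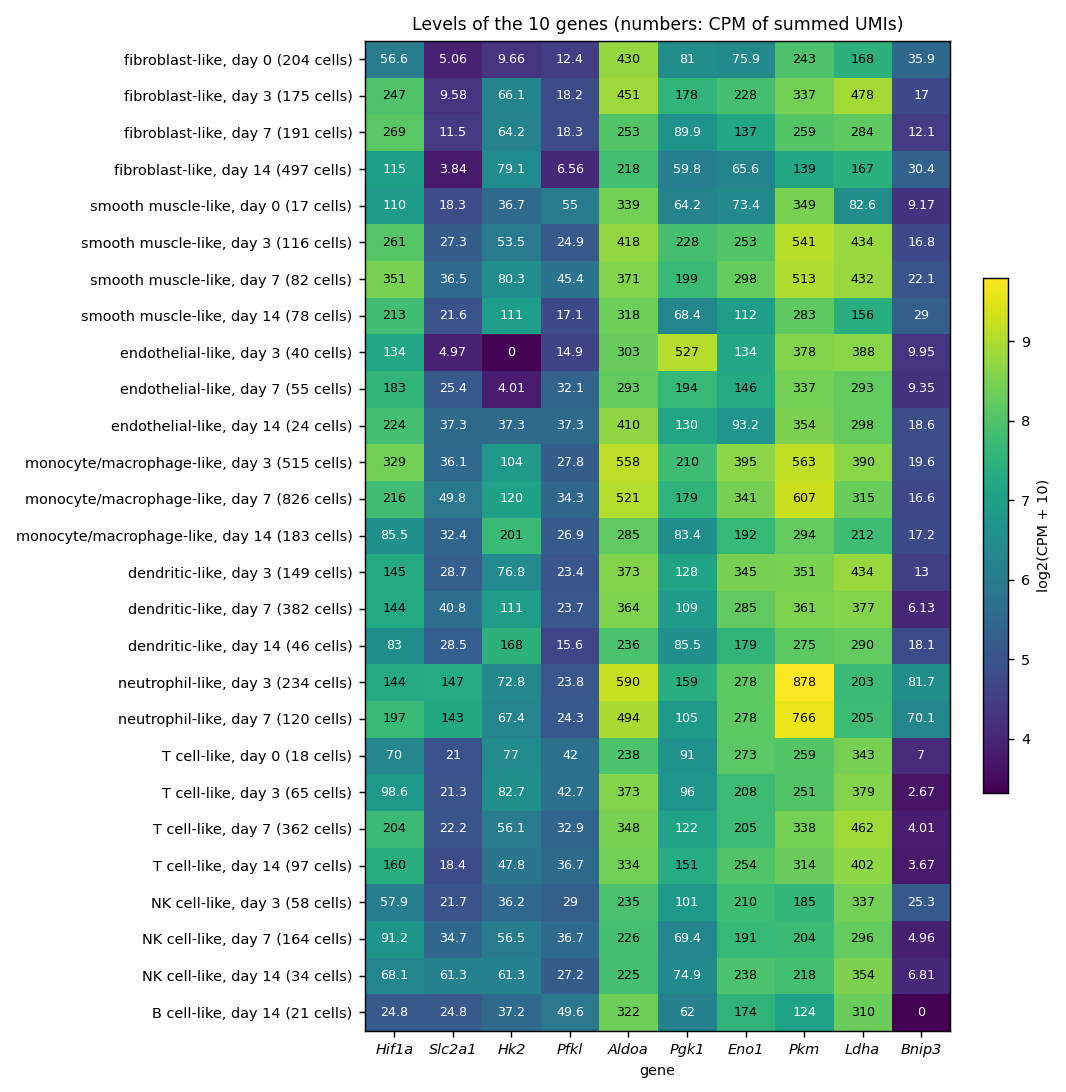
Levels of the 10 genes (columns) in each class and day with at least 15 cells (rows); the numbers are CPM and the colour is log2(CPM + 10). Pkm and Slc2a1 were highest in the neutrophil-like rows, Hk2 in the monocyte/macrophage-like row of day 14, and Pgk1 in the endothelial-like row of day 3.

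In fibroblast-like cells, the class with enough cells before injury, Hif1a and Hk2 were higher after injury, Ldha, Eno1 and Pgk1 were higher at day 3 when all cells were summed, Bnip3 was lower at days 3 and 7, and most enzymes had returned to or below their day 0 level by day 14. Hif1a stood at 56.6, 247, 269 and 115 CPM at days 0, 3, 7 and 14. The day 3 value was 4.37 times that of day 0 (3.62–5.32) and the day 7 value 4.76 times (3.95–5.78). At day 14 Hif1a was 2.04 times its day 0 level (1.69–2.47). In the cells with at most 30000 UMIs the ratios of Hif1a were 1.95 (1.42–2.65) at day 3, 3.97 (3.19–4.97) at day 7 and 1.96 (1.62–2.39) at day 14, so that day 7 alone passed 2 times. It was lowest before injury and highest at day 7.

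Hk2, a hexokinase that binds to mitochondria and traps glucose in the cell, was low before injury, with 21 UMIs, and stayed up through day 14. Its levels were 9.66, 66.1, 64.2 and 79.1 CPM over the 4 days, which makes 6.84 (4.38–11.2), 6.65 (4.27–10.9) and 8.19 times (5.32–13.3) the level of day 0. All 3 libraries after injury lay above the day 0 library in Hk2. In the cells with at most 30000 UMIs its levels after injury were 30.5, 81.8 and 81.8 CPM. Slc2a1, which brings glucose into the cell, was scarce in this class, at 5.06, 9.58, 11.5 and 3.84 CPM. Pfkl, the liver-type subunit of phosphofructokinase, was at 12.4, 18.2, 18.3 and 6.56 CPM. Both were too low for the comparison, which took genes with a mean of at least 20 CPM over both days and at least 20 UMIs.

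The enzymes of the later steps peaked at day 3. Ldha, which makes lactate from pyruvate, was at 168, 478, 284 and 167 CPM, a ratio of 2.84 at day 3 (2.54–3.18) and of 0.99 at day 14 (0.88–1.11). Eno1, the enolase of most tissues, was at 75.9, 228, 137 and 65.6 CPM and was 3.00 times higher at day 3 (2.54–3.56). Pgk1, whose enzyme makes ATP directly, was at 81.0, 178, 89.9 and 59.8 CPM and was 2.20 times higher at day 3 (1.86–2.61). Over all cells, day 3 stood above the other days for all 3 genes. Day 14 did not differ from day 0 beyond counting error for Ldha and Eno1, and was at 0.74 times for Pgk1 (0.62–0.88).

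Aldoa and Pkm changed less and then fell below their starting level. Aldoa, which splits fructose 1,6-bisphosphate, was at 430, 451, 253 and 218 CPM, or 0.59 times day 0 at day 7 (0.54–0.64) and 0.51 times at day 14 (0.47–0.55). Pkm, the pyruvate kinase whose splice forms these counts do not separate, was at 243, 337, 259 and 139 CPM, or 1.39 times day 0 at day 3 (1.25–1.53) and 0.57 times at day 14 (0.52–0.63). Bnip3 ran the other way, at 35.9, 17.0, 12.1 and 30.4 CPM. Against the level before injury, Bnip3 was at 0.47 times on day 3 (0.34–0.66) and 0.34 times on day 7 (0.24–0.48), and had come back to 0.85 times on day 14 (0.66–1.10).

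Of the 8 members that could be compared at day 3, 5 were at least 2 times higher than at day 0 and 1 was at least 2 times lower, where 6.04% and 8.41% of all 5925 genes compared passed those limits. Their median log2 ratio was 1.32, and that of all genes was -0.13. At day 7, 2 were higher and 1 lower, against 6.38% and 6.94% of all genes, with a median log2 ratio of 0.45 against -0.09. Without the cells over 30000 UMIs the median of the members was 0.12 at day 3 and -0.0085 at day 7, the other side of 0. At day 14, Hif1a and Hk2 were higher and none was lower by 2 times, against 4.16% and 3.59% of all genes, and the median was -0.23 against -0.08. From day 7 to day 14, Bnip3 was 2.51 times higher (1.88–3.40), and Hif1a at 0.43 times (0.39–0.46) and Eno1 at 0.48 times (0.43–0.53) were lower, where 2.91% and 2.86% of all genes passed. In the cells with at most 30000 UMIs Eno1 was at 87.2 and 62.0 CPM on those 2 days, short of the limit.

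**Figure D2:**
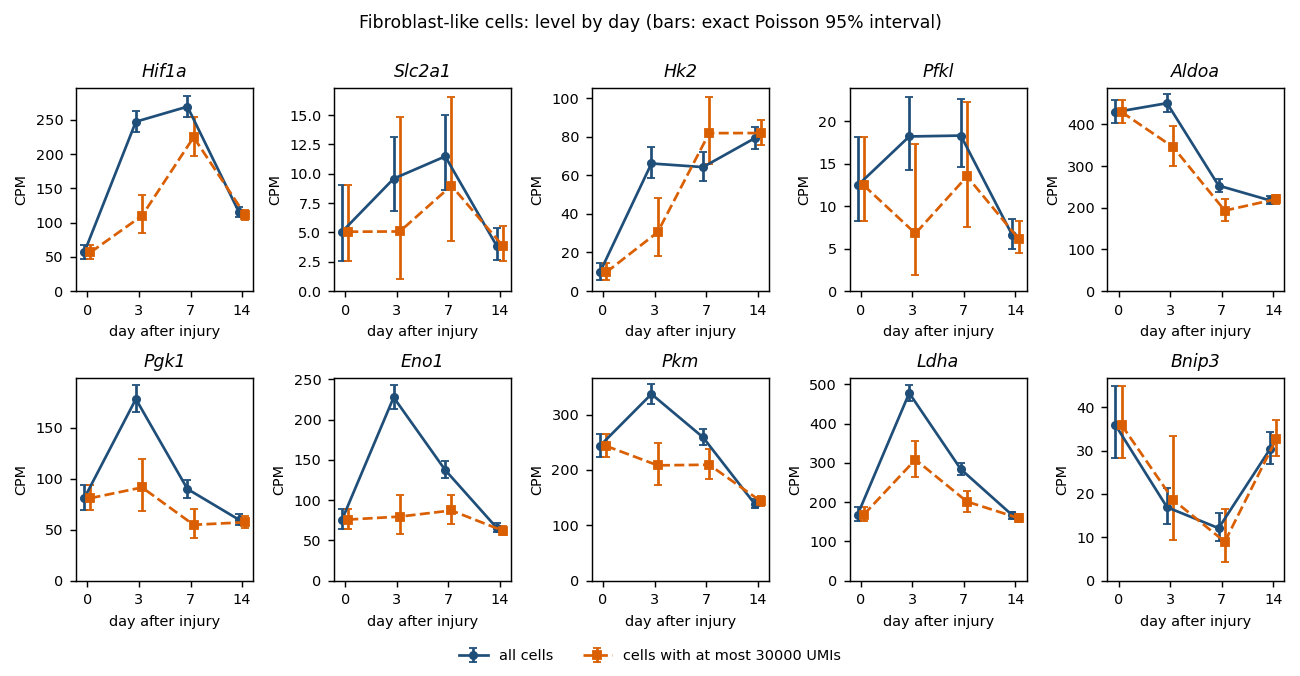
Level (CPM, from 0) of each of the 10 genes by day in fibroblast-like cells; circles with solid lines are sums over all cells, squares with dashed lines sums over cells with at most 30000 UMIs, and bars are exact Poisson 95% intervals. At day 3 Eno1 stood at 228 CPM over all cells and at 79.6 CPM over the shallower cells, while at day 7 Hif1a stood above its day 0 level in both.

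Most of the rise of the enzymes at day 3 was carried by cells with very many UMIs. The 56 fibroblast-like cells with over 30000 UMIs gave 85.5% of the UMIs of the class at day 3, and 76 such cells gave 76.3% at day 7, whereas day 0 had none. At day 3 Eno1 was at 253 CPM in these deep cells and at 79.6 CPM in the other 119 cells, a ratio of 3.17 (2.37–4.35). Pgk1 was at 193 and 91.5 CPM, Hif1a at 271 and 110 CPM, and Ldha at 506 and 308 CPM. With the deep cells left out, the ratio of day 3 to day 0 was 1.05 for Eno1, 1.13 for Pgk1, 1.83 for Ldha, 1.95 for Hif1a and 3.16 for Hk2, so that of the 5 rises past 2 times that of Hk2 alone held. The ratio of Bnip3 was then 0.52, just short of the limit. At day 7 the same cells made less difference to Hif1a, at 225 CPM in the shallower cells, and to Hk2, at 81.8 CPM. The deep cells had a median Scrublet doublet score of 0.0214 at day 3, against 0.00843 in the others, and summed proliferation genes of 90.8 against 67.8 CPM. The part of cell size, doublets or growth in the difference was not tested.

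The clusters that made up the class also changed. A cluster led by Rbp4 and Lamc3 held 73.6% of the UMIs of the class at day 0, one led by Saa3 and Igfbp5 67.1% at day 3, and one led by C1qtnf3 and Angptl1 61.4% at day 7 and 77.3% at day 14. The Saa3 cluster had cells on every day, so the days could be compared within it. In it Hif1a was at 21.0 CPM at day 0 and at 329, 438 and 130 CPM afterwards, or 15.7 times higher at day 3 (8.23–34.4). Ldha was at 133, 566, 373 and 120 CPM, 4.26 times higher at day 3 (3.27–5.65), and Eno1 at 81.6, 275, 191 and 76.4 CPM. Of 8 members compared in this cluster, 6 were at least 2 times higher at day 3 than at day 0 and none was 2 times lower, against 9.71% and 13.9% of 5931 genes. The cluster held 26, 43, 32 and 46 cells on the 4 days, and cells with over 30000 UMIs gave 96.7% of its UMIs at day 3, 86.8% at day 7 and 14.0% at day 14, but none before injury. Its shallower cells numbered 5 at day 3 and 11 at day 7, too few to be summed, so the part of the deep cells in its day 3 and day 7 values was not tested. At day 7 in the same cluster, 5 of 8 were higher and Bnip3 was lower, against 12.4% and 11.4% of 6171 genes. At day 14, Hif1a and Hk2 were higher and Aldoa was lower, against 8.05% and 6.08% of 6122 genes. These 3 also passed without the deep cells, at 6.51 (3.30–14.6), 4.41 (2.1–10.7) and 0.45 times (0.36–0.56). Between days 7 and 14, Hif1a, Eno1, Pkm and Ldha were lower by 2 times among 7 compared and none was higher, against 8.17% and 8.33% of 6195 genes.

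Other clusters gave fewer changes. In the Rbp4 cluster, Hk2 was at 7.50 CPM before injury and at 37.5 CPM on day 14, 5.0 times higher (2.43–10.9). It was the member of 8 compared that passed 2 times, where 2.63% of 5929 genes were higher and 2.26% lower, and Hif1a there was at 66.9 and 89.3 CPM. In the C1qtnf3 cluster, Bnip3 alone of 8 passed between days 7 and 14, 2.45 times higher (1.70–3.61), against 3.80% of genes higher and 2.88% lower. Hif1a, at 232 and 119 CPM, and Eno1, at 121 and 60.9 CPM, fell just short of the limit, while Hk2 was level at 74.8 and 79.7 CPM. The median log2 ratio of the members was -0.58, against 0.02 for all genes. Deep cells gave 74.3% of the UMIs of this cluster at day 7 and 19.9% at day 14. Within the day 3 library, Hif1a was 4.27 times higher in the Saa3 cluster than in one led by Sfrp4 and Tnfrsf11b (3.44–5.36), and it was the member of 7 that passed, where 3.34% of 5656 genes were higher and 4.37% lower. Deep cells gave 72.0% of the UMIs of the Sfrp4 cluster on that day, and their part was not tested.

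The isoenzymes shifted along with the levels. Ldhb, the heart-type subunit that favours the return of lactate to pyruvate, was at 98.0, 33.4, 23.0 and 31.1 CPM in fibroblast-like cells, so that it was 0.34 times its day 0 level at day 3 (0.27–0.42). Of the UMIs of the pair, Ldha held 63.2% before injury (59.1–67.2). After it the share was 93.5% (92.3–94.5), 92.5% (91.0–93.8) and 84.3% (82.5–86.0) in the 3 libraries in order of time. In the cells with at most 30000 UMIs the share of Ldha at days 3, 7 and 14 was 83.9%, 88.2% and 82.4%. The shift to Ldha was therefore seen without the deep cells too. Hk2 held 28.4% of the hexokinase UMIs at day 0 (18.5–40.1) and 71.0%, 73.5% and 77.3% at days 3, 7 and 14. Without the deep cells these shares were 52.9% (35.1–70.2), from 34 UMIs, 74.6% and 78.2%, and the interval of day 3 then overlapped that of day 0. Hk1 stayed between 23.2 and 26.8 CPM over all cells and Hk3 at or near 0. Pfkl held a minor share of the phosphofructokinase UMIs, between 10.9% and 27.2%, and Pfkp, at 67.6 CPM before injury and between 40.6 and 44.7 CPM after it, was the main form. Aldoc, Eno2, Eno3, Pfkm and Slc2a3 all stayed below 11 CPM.

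The rest of the pathway did not move as a block in fibroblast-like cells at day 3. Of all 5925 genes compared on that day, 6.04% were at least 2 times higher than at day 0 and 8.41% at least 2 times lower. Of 7 other glycolytic enzymes compared, Ldhb was lower by 2 times and none was higher, although Gapdh went from 502 to 946 CPM and Pgam1 from 140 to 246 CPM. Tpi1 was at 140 and 184 CPM. Of the transporters and phosphofructokinase regulators only 1 could be compared, and it did not reach 2 times. None of 3 HIF subunits and regulators passed. Epas1, the other oxygen-sensitive HIF subunit (HIF-2α), was at 28.1, 5.16, 8.72 and 8.93 CPM, too low to be compared, and Hif1a made up 66.8% of the UMIs of both subunits before injury (59.5–73.6) and 97.6%, 96.9% and 92.6% after it. Of 10 other hypoxia response genes Adm, the vasodilator peptide adrenomedullin, was lower, at 74.5 CPM at day 0 and 36.9 CPM at day 3, and none was higher. Adm was at 16.8 CPM on day 7 and at 116 CPM on day 14, 6.90 times higher (5.49–8.79), the same direction as Bnip3. Among 12 genes of pyruvate entry and the citric acid cycle, citrate synthase (Cs) was 2.06 times higher, at 34.5 and 71.3 CPM, and among 5 of the pentose phosphate pathway Pgd was 2.03 times higher, at 35.0 and 71.0 CPM. Of the dissociation and early stress genes, Atf3 and Dnajb1 were higher at day 3 out of 10. At day 14, 7 of 10 were higher, where 4.16% of all genes were. The summed level of that list was 4523, 4817, 7534 and 10113 CPM over the 4 days, and its part in the course of Hif1a and Hk2 was not tested. The summed monocyte/macrophage markers in this class were 2759, 743, 683 and 2540 CPM.

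In smooth muscle-like cells, Hk2 was higher at day 14 than at day 3, and over all cells Hif1a, Ldha, Pgk1 and Eno1 were higher at days 3 and 7 than at day 0. The later enzymes were lower at day 14 than at day 3, by less where deep cells were left out. Day 0 rested on 17 cells with 109022 UMIs, of which 7 cells in a Myh11 and Tagln cluster gave 87.5%, and its intervals are wide. Ldha was at 82.6, 434, 432 and 156 CPM at days 0, 3, 7 and 14, with a ratio of day 3 to day 0 of 5.25 (2.76–11.5). Pgk1 was at 64.2, 228, 199 and 68.4 CPM, with a ratio of 3.55 (1.71–8.85), and Eno1 at 73.4, 253, 298 and 112 CPM, with a ratio of 3.45 (1.74–8.01). Over all cells these 3 genes were low at days 0 and 14 and high at days 3 and 7. In the cells with at most 30000 UMIs, which include all cells of day 0, Ldha was at 303, 166 and 166 CPM, Pgk1 at 153, 97.6 and 78.3 CPM and Eno1 at 116, 81.3 and 109 CPM after injury. Eno1 thus had no peak at days 3 and 7 beyond counting error in those cells.

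Hif1a was at 110, 261, 351 and 213 CPM, 2.37 times higher at day 3 than at day 0 (1.35–4.60). Aldoa was at 339, 418, 371 and 318 CPM and Pkm at 349, 541, 513 and 283 CPM. Slc2a1 was at 18.3, 27.3, 36.5 and 21.6 CPM, Pfkl at 55.0, 24.9, 45.4 and 17.1 CPM, and Bnip3 at 9.17, 16.8, 22.1 and 29.0 CPM, where the day 0 values stand for 2, 6 and 1 UMIs. Of 9 members compared between days 3 and 0, 4 were higher by 2 times and Pfkl was lower, against 14.4% and 20.4% of 6325 genes, and the median log2 ratio was 0.63 against -0.15. At day 7, 5 of 9 were higher and none lower, against 14.1% and 18.6%. Without the deep cells, which day 0 lacked, Ldha was at 2.01 times (1.02–4.50), while Pgk1 at 1.52 (0.70–3.93) and Eno1 at 1.11 (0.53–2.69) no longer passed. At day 14, Hk2 of 8 was higher and Pfkl lower, against 7.77% and 13.1%.

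The comparison of day 14 with day 3 had far more UMIs behind it. Pgk1 was at 0.30 times its day 3 level (0.24–0.37), Ldha at 0.36 (0.31–0.42) and Eno1 at 0.44 (0.37–0.53), whereas Hk2 was 2.07 times higher (1.67–2.56), going from 53.5 through 80.3 to 111 CPM. Without the cells over 30000 UMIs the ratios were 0.51 for Pgk1 (0.37–0.71), 0.55 for Ldha (0.44–0.69), 0.94 for Eno1 (0.68–1.31) and 2.60 for Hk2 (1.76–3.93). None of the 3 enzymes then passed the limit, and Hk2 still did. Over all cells, of 10 members 3 were lower and 1 was higher, where 8.08% and 6.98% of 6117 genes passed, and the median log2 ratio was -0.47 against -0.05. Between days 3 and 7 none of 9 members passed 2 times in either direction, against 1.81% of genes higher and 1.25% lower. Over 10 other settings of the processing the ratio of Hk2 ran from 1.11, with libraries clustered separately, to 2.76, as a mean over cells, and it passed 2 times in 5 of them.

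The isoenzymes of smooth muscle-like cells also differed between the days when all cells were summed. Ldha held 90.6% of the Ldha and Ldhb UMIs at day 3 (89.3–91.9), 88.7% at day 7 and 60.7% at day 14 (55.3–65.9), when Ldhb had gone from 44.8 to 101 CPM, 2.26 times (1.80–2.83). In the cells with at most 30000 UMIs the share of Ldha was 87.3% (81.8–91.6), 80.6% and 60.6% (54.0–67.0) at days 3, 7 and 14. The fall of its share was therefore seen without the deep cells too. Over all cells Pfkp was 2.11 times higher at day 14 than at day 3 (1.73–2.57). Gapdh, the enzyme that loads phosphate onto the sugar, was at 0.47 times (0.44–0.51) and Pgam1 at 0.48 times (0.41–0.56) their day 3 level. Epas1 rose 6.42 times (4.80–8.67), from 16.8 to 108 CPM, and the share of Hif1a among the UMIs of both HIF subunits was 93.8%, 84.1% and 66.2% at days 3, 7 and 14. The part of the deep cells in the changes of Pfkp, Gapdh, Pgam1 and Epas1 was not tested. Of the cell cycle list, 9 of 12 genes were at least 2 times lower at day 14 than at day 3 and its summed level was 1165, 1402, 1192 and 518 CPM over the 4 days. In the cells with at most 30000 UMIs, which are all cells of day 0, that sum was 1165, 382, 835 and 163 CPM. Day 0 had 17 cells with 109022 UMIs. Of these cells, 1 lay in a cluster led by Top2a, a cell cycle gene, and gave 5.52% of the UMIs. Its part in the day 0 sum was not tested. The smooth muscle markers summed to 38176, 15951, 11590 and 41042 CPM over the 4 days and the fibroblast markers in the same cells to 4247, 17243, 22713 and 12025 CPM. Over all cells the contractile markers were lowest on the days on which Ldha, Eno1 and Pgk1 were highest, and the part of cell state or cell mixture in this was not tested. Of the smooth muscle-like UMIs at days 3 and 7, 86.4% and 73.8% came from cells with over 30000 UMIs, and at day 7 Eno1 was 4.62 times (3.51–6.19) and Ldha 3.18 times (2.61–3.90) higher in those cells than in the rest.

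Monocyte/macrophage-like cells held the highest Hif1a and Eno1 of the 8 classes summed at day 3 and had far less Hif1a at day 14, while their Hk2 was higher. Hif1a was at 329, 216 and 85.5 CPM at days 3, 7 and 14, so that day 14 was at 0.26 times day 3 (0.21–0.31). Pgk1 was at 210, 179 and 83.4 CPM, at 0.40 times (0.33–0.48), and Eno1 at 395, 341 and 192 CPM, at 0.49 times (0.43–0.55). Aldoa at 558, 521 and 285 CPM, Pkm at 563, 607 and 294 CPM, and Ldha at 390, 315 and 212 CPM were at 0.51 to 0.54 times their day 3 level, just short of the limit. Hk2 alone went the other way, at 104, 120 and 201 CPM, 1.93 times higher at day 14 than at day 3 (1.67–2.22). Slc2a1 at 36.1, 49.8 and 32.4 CPM, Pfkl at 27.8, 34.3 and 26.9 CPM and Bnip3 at 19.6, 16.6 and 17.2 CPM showed no difference between days 3 and 14 beyond counting error.

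Of 9 members compared between days 14 and 3, 3 were lower by 2 times and none was higher, against 6.16% and 4.64% of 5777 genes, with a median log2 ratio of -0.94 against -0.17. From day 3 to day 7 none of 9 passed in either direction, against 2.80% of genes higher and 2.36% lower. Slc16a3, the lactate exporter MCT4, fell with the enzymes, from 82.4 through 47.4 to 25.5 CPM (0.31 times, 0.22–0.43). Pfkfb3, which makes the activator of phosphofructokinase and was under 50 CPM on each day, went from 20.9 to 48.3 CPM. Of 6 pentose phosphate genes G6pdx was lower, at 0.42 times (0.28–0.60), and none of 12 pyruvate and citric acid cycle genes or of 3 HIF subunits and regulators passed. Of 9 other hypoxia response genes Ndrg1 was higher, 2.49 times (1.85–3.33). Hk1 went from 31.9 to 10.3 CPM and Hk3 from 35.5 to 14.5 CPM, so that the share of Hk2 among hexokinase UMIs was 60.7%, 73.0% and 89.0% at days 3, 7 and 14. All 10 early stress genes were higher by 2 times at day 14, and their summed level was 4842, 11056 and 17067 CPM over the 3 days. Its part in the rise of Hk2 was not tested.

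**Figure D3:**
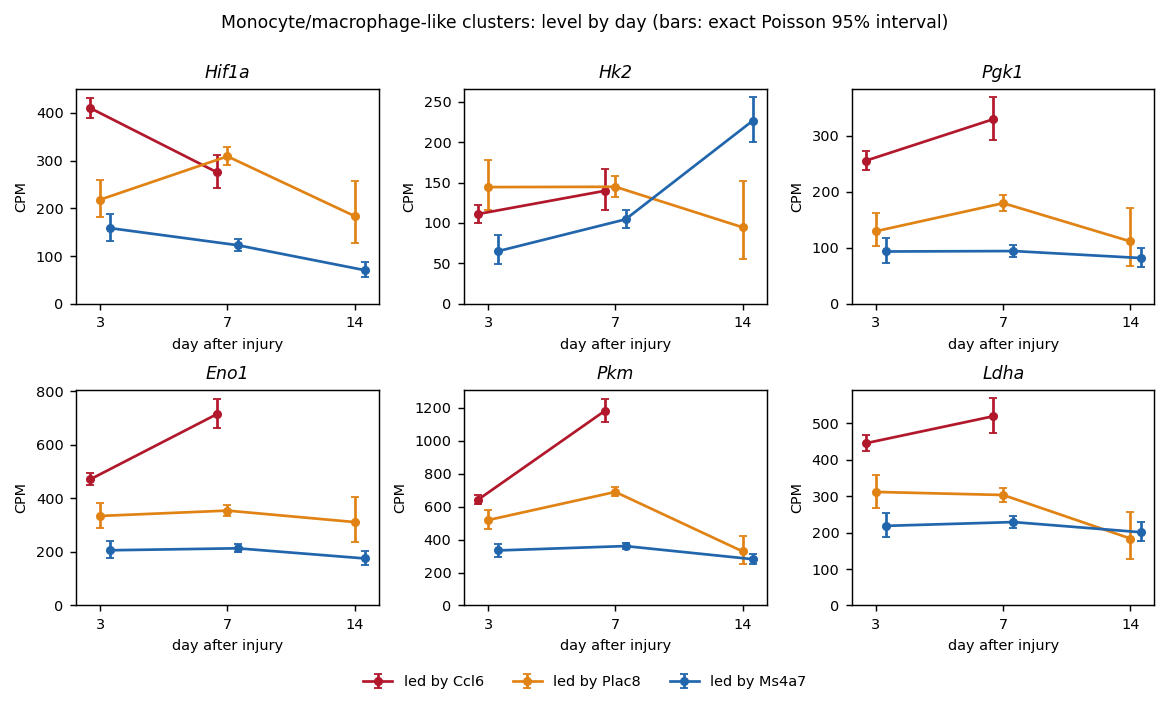
Level (CPM, from 0) of 6 of the genes by day in the 3 largest clusters of monocyte/macrophage-like cells, shown where a cluster had at least 15 cells; bars are exact Poisson 95% intervals. The cluster led by Ccl6 was highest for Pgk1, Eno1, Pkm and Ldha, and Hk2 of the cluster led by Ms4a7 and C1qa was at 65.1 CPM on day 3 and at 227 CPM on day 14.

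The fall in the class went with a change of the clusters in it. A cluster led by Ccl6 held 63.8% of the class UMIs at day 3, 10.3% at day 7 and 1.16% at day 14, and one led by Ms4a7 and C1qa, a complement gene of resident-type macrophages, 14.9%, 38.9% and 78.5%. Another, led by Plac8 and Il1b, held 11.2%, 40.0% and 12.4%. The 10 genes and the other lists had been left out of the genes that formed the clusters. In the day 3 library the Ccl6 cluster of 322 cells exceeded the C1qa cluster of 67 cells in Hif1a (410 against 158 CPM), Pgk1 (256 against 93.3 CPM), Eno1 (471 against 206 CPM), Aldoa (678 against 300 CPM), Ldha (445 against 219 CPM) and Pkm (642 against 334 CPM). Of 9 members compared, 7 were at least 2 times higher in the Ccl6 cluster and none was lower, where 4.08% and 4.51% of 5759 genes passed, and the median log2 ratio was 1.18 against 0.05. The same clusters in the day 7 library gave 8 of 9 higher, against 5.39% of 5548 genes, with Pkm at 1183 against 361 CPM and Eno1 at 716 against 214 CPM. Ldha was the member among them that fell under 2 times without the deep cells, at 1.98 (1.72–2.28). Inside a library the cells share their preparation, so this difference is not one between days.

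Within the C1qa cluster most of the enzymes hardly moved. From day 3 to day 14, Eno1 was at 0.85 times (0.69–1.05), Ldha at 0.92 (0.75–1.13), Pgk1 at 0.88 (0.64–1.20) and Pkm at 0.84 (0.71–0.99). Hif1a fell there too, at 158, 123 and 70.3 CPM (0.44 times, 0.33–0.59), and Hk2 rose, at 65.1, 104 and 227 CPM (3.48 times, 2.58–4.77). Of 8 members compared 1 was higher and 1 lower, where 5.88% and 8.60% of 5627 genes passed, and the median log2 ratio was -0.16 against -0.11. The fall of these enzymes was therefore seen over the class and not inside this cluster, whereas the changes of Hif1a and Hk2 were seen in both. The Plac8 cluster, with 18 cells at day 14, differed. There Pkm was at 518 CPM at day 3 (463–579) and 328 CPM at day 14 (250–424) and Ldha at 312 (269–359) and 184 CPM (126–258), while Hk2 was at 144 (116–178) and 94.6 CPM (55.1–152). In the C1qa cluster none of 8 passed between days 3 and 7, against 3.57% and 5.57% of genes. Slc2a1 of the C1qa cluster was under the minimum level in both comparisons with day 3. It went from 3.68 CPM (3 UMIs) at day 3 to 26.0 CPM at day 7, 7.05 times (2.33–34.8). On day 14 it was at 27.2 CPM, 7.39 times day 3 (2.31–37.8). Its level over the class was similar at days 3 and 14. Within the Ccl6 cluster, Pkm was 1.84 times higher (1.71–1.98) and Slc2a1 2.21 times higher (1.65–2.94) at day 7 than at day 3, and Hif1a was at 0.67 times (0.58–0.77). Slc2a1 was the member of 10 that passed there, against 2.57% of 5711 genes higher and 4.64% lower. Deep cells gave 29.3% of the day 7 UMIs of the cluster, and without them Slc2a1 was at 76.9 against 38.5 CPM, just under 2 times. In the Plac8 cluster none of 9 passed between those days (2.40% and 1.92% of genes), and at day 7 it exceeded the C1qa cluster by 2 times in Hif1a (309 against 123 CPM) and Slc2a1 (68.5 against 26.0 CPM) out of 9, against 4.77% and 5.14% of genes. Between the Ccl6 and Plac8 clusters of day 3 none of 9 members passed, against 8.24% and 4.75% of genes.

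Neutrophil-like cells had the highest Slc2a1, Bnip3 and Pkm of the classes at days 3 and 7. Their Slc2a1 was at 147 CPM at day 3 (119–179) and at 143 CPM at day 7 (107–187). It exceeded the next class, the monocyte/macrophage-like cells, by 4.08 times at day 3 (3.17–5.22) and by 2.87 times at day 7 (2.12–3.82). Bnip3 was at 81.7 CPM (61.5–106) and 70.1 CPM (45.8–103), above the next class by 3.22 times (1.46–8.39) and 3.17 times (1.91–5.12). Pkm was at 878 CPM (808–951) and 766 CPM (680–860), above the monocyte/macrophage-like cells by 1.56 times (1.42–1.70) and 1.26 times (1.12–1.42). This order holds for whole classes. The Ccl6 cluster of monocyte/macrophage-like cells, taken alone, had more Pkm at day 7 than the neutrophil-like cells. Aldoa of the neutrophil-like cells, at 590 and 494 CPM, did not differ from the whole monocyte/macrophage-like class beyond counting error. Ldha, at 203 and 205 CPM, was the lowest of the 8 classes on both days, and Hif1a, at 144 and 197 CPM, was in the middle.

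**Figure D4:**
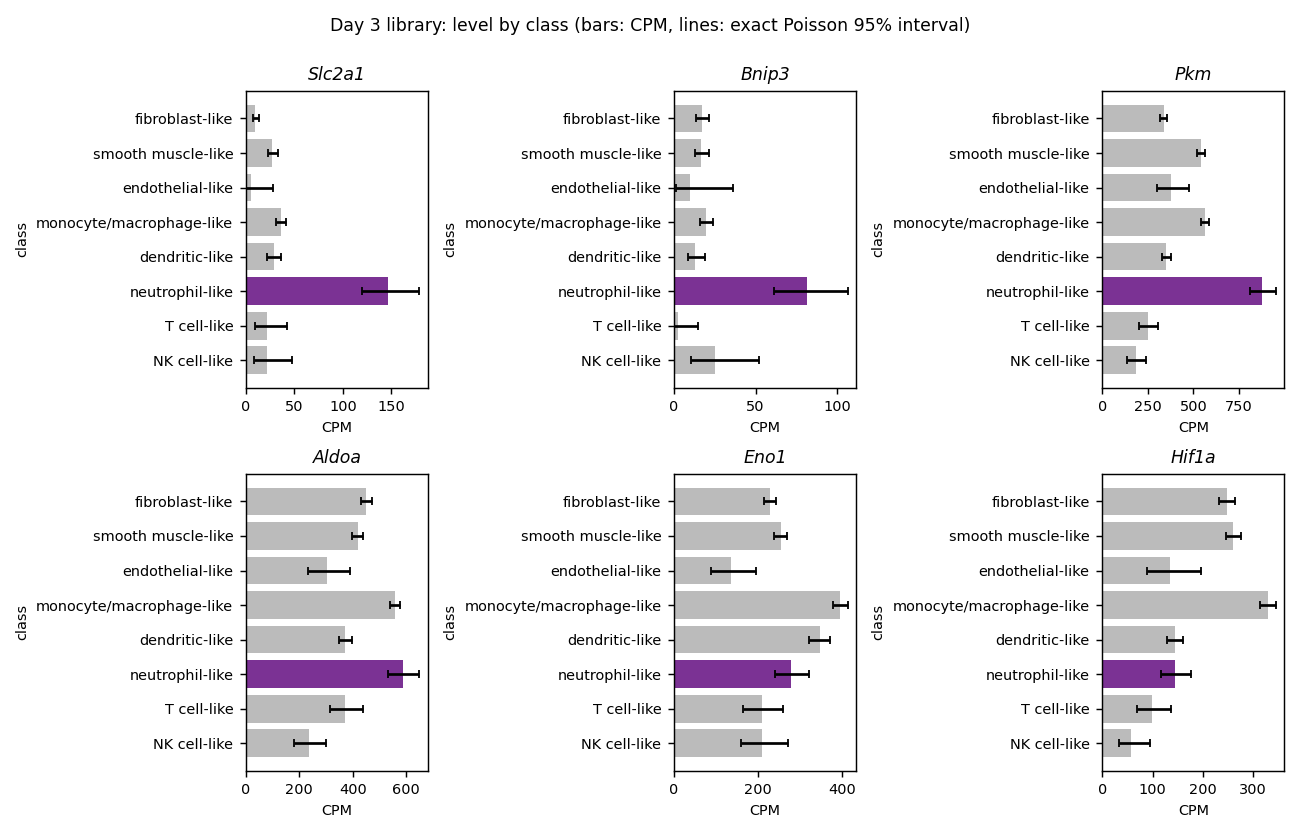
Level (CPM, from 0) of 6 of the genes in each class of the day 3 library; bars are CPM of summed UMIs, lines exact Poisson 95% intervals, and the neutrophil-like class is coloured. Slc2a1, Bnip3 and Pkm stood above every other class there, while Eno1 and Hif1a were highest in monocyte/macrophage-like cells.

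Some other genes of the pathway were also at their highest in neutrophil-like cells. Slc16a3 was at 423 and 372 CPM at days 3 and 7, against 82.4 and 47.4 CPM in monocyte/macrophage-like cells. Slc2a3, the transporter GLUT3, was at 114 and 129 CPM, so that Slc2a1 made up 56.2% (48.6–63.7) and 52.5% (42.3–62.5) of the UMIs of both transporters, whereas in monocyte/macrophage-like cells it made up 93.8% and 98.6%. Hk3, the hexokinase of myeloid cells, was at 148 and 97.1 CPM, and Hk2 held 27.7% and 35.7% of the hexokinase UMIs. Egln3, an oxygen sensor that is itself induced by HIF, was at 46.0 and 32.4 CPM and below 15 CPM in all other classes. Vegfa was at 189 and 299 CPM. These genes were singled out after their values were seen, apart from Slc2a3 and Hk3. None of the 10 members passed 2 times between days 3 and 7, where 7.01% of 4894 genes were higher and 4.94% lower, and the median log2 ratio was -0.08 against 0.04. The neutrophil-like cells had a median of 2857 UMIs at day 3 and were shallower than the monocyte/macrophage-like cells, at 8642. The early stress list summed to 18171 and 22104 CPM in them, and its part in these levels was not tested.

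Dendritic-like cells showed the same rise of Hk2. It was at 76.8, 111 and 168 CPM at days 3, 7 and 14, 2.19 times higher at day 14 than at day 3 (1.62–2.94), while Eno1 was at 345, 285 and 179 CPM, Ldha at 434, 377 and 290 CPM, and Hif1a at 145, 144 and 83.0 CPM. Hk2 was the member of 8 compared that passed 2 times, where 6.70% of 5594 genes were higher and 4.70% lower, and the median log2 ratio was -0.58 against 0.01. From day 3 to day 7 none of 9 passed, against 1.63% and 1.03%. Pfkfb3 was 2.23 times higher at day 14 (1.57–3.14), and 9 of the 10 early stress genes were higher.

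**Figure D5:**
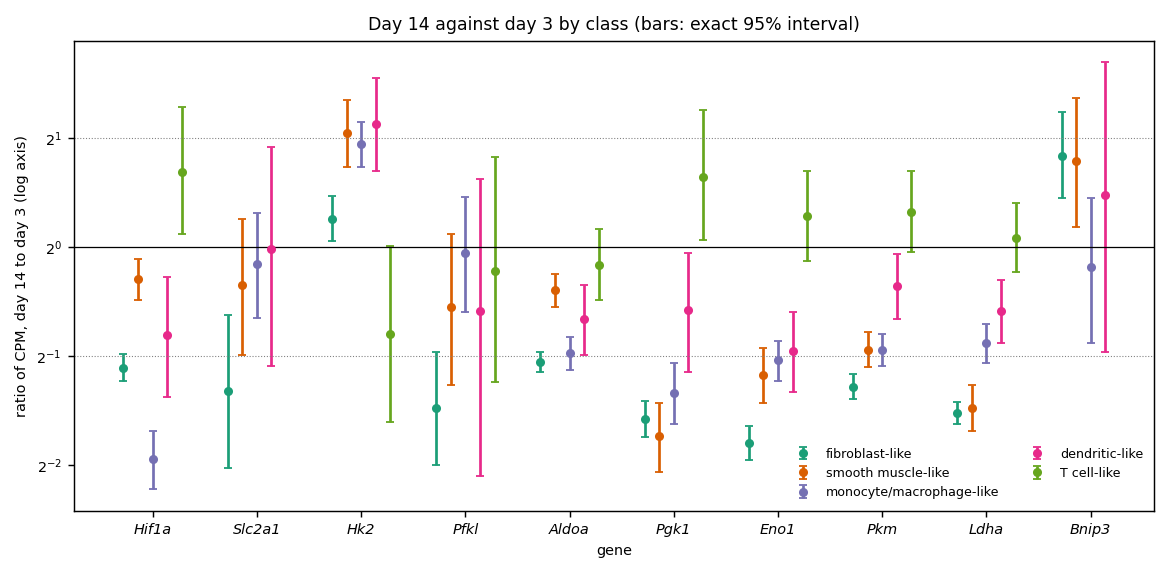
Ratio of the level at day 14 to that at day 3 (log axis) for each gene in 5 classes, with exact 95% intervals; points with fewer than 20 UMIs in both days together are left out, the solid line is 1 and the dotted lines are 2 and 0.5. Hk2 lay above 1 in fibroblast-, smooth muscle-, monocyte/macrophage- and dendritic-like cells and below 1 in T cell-like cells, while Eno1 lay below 1 in the same 4 classes.

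Hk2 at day 14 against day 3 was thus 1.20 times in fibroblast-like (1.04–1.38), 2.07 in smooth muscle-like, 1.93 in monocyte/macrophage-like and 2.19 in dendritic-like cells. Eno1 was 0.29 times in fibroblast-like cells (0.26–0.32), 0.44 in smooth muscle-like, 0.49 in monocyte/macrophage-like and 0.52 in dendritic-like cells. All these ratios share the same pair of libraries. Without the cells over 30000 UMIs the ratio of Hk2 was 2.68 in fibroblast-like (1.68–4.56), 2.60 in smooth muscle-like, 1.86 in monocyte/macrophage-like and 2.29 in dendritic-like cells. That of Eno1 was then 0.78 in fibroblast-like (0.58–1.08) and 0.94 in smooth muscle-like cells, neither beyond counting error, but 0.49 (0.43–0.55) in monocyte/macrophage-like and 0.53 (0.41–0.68) in dendritic-like cells. In the order of Hk2 levels at day 14, monocyte/macrophage-like and dendritic-like cells did not differ beyond counting error (1.19 times, 0.91–1.58), and smooth muscle-like cells came next.

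Among the lymphoid classes, T cell-like cells had no rise of Hk2 by day 14, and NK cell-like cells had too few Hk2 UMIs to tell. In T cell-like cells Hif1a was at 70.0, 98.6, 204 and 160 CPM at days 0, 3, 7 and 14, and day 7 was 2.07 times day 3 (1.48–2.98). It was the member of 9 compared that passed 2 times, where 3.33% of 5770 genes were higher and 3.54% lower. Their Ldha, at 343, 379, 462 and 402 CPM, was the highest of the classes at days 7 and 14, and their Bnip3, below 8 CPM, among the lowest. Hk2 was at 77.0, 82.7, 56.1 and 47.8 CPM, and day 14 was at 0.58 times day 3 (0.33–1.01), below the ratios of the myeloid classes. Day 0 of this class was 18 cells, and its Hif1a and Hk2 values stand for 10 and 11 UMIs. Of those cells, 6 lay in a cluster led by the cell cycle gene Top2a and gave 38.3% of the UMIs. At day 14 none of 8 members had passed 2 times from day 3, against 6.86% and 5.60% of 5658 genes. In NK cell-like cells Hif1a was at 57.9, 91.2 and 68.1 CPM at days 3, 7 and 14, the lowest of the classes at days 3 and 7. Hk2 there was at 36.2, 56.5 and 61.3 CPM, from 10, 57 and 9 UMIs, and its ratio of day 14 to day 3 was 1.69 (0.61–4.63), an interval that holds both no change and the ratios of the myeloid classes. No member compared passed 2 times at day 7 (9 compared, 4.69% and 6.20% of 5954 genes) or day 14 (6 compared, 5.09% and 7.67% of 3457 genes). B cell-like cells could be summed at day 14 alone, with 21 cells, and had no Bnip3 UMI among 80620, which allows up to 45.8 CPM.

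Endothelial-like cells had little Hk2 and, at day 3, the highest Pgk1. Hk2 had no UMI among 201021 at day 3, which allows up to 18.4 CPM, and stood at 4.01 CPM at day 7 (0.83–11.7), while Hk1 was at 69.6 and 69.5 CPM. Pgk1 was at 527 CPM at day 3 (432–638) and at 194 CPM at day 7 (163–228), 0.37 times (0.28–0.48). Of 7 members compared Pgk1 was lower and Pfkl, at 2.15 times (0.65–11.1), higher, where 8.45% and 14.2% of 6164 genes passed. Hif1a was at 134 and 183 CPM and Epas1, which is known for its high level in endothelium, at 224 and 449 CPM. Of 11 other hypoxia response genes 6 were higher at day 7, among them Vegfa, at 9.95 CPM (2 UMIs) and 196 CPM, and Ndrg1, at 49.7 and 164 CPM. Of the 10 early stress genes 7 were higher as well, with a summed level of 3025 and 5069 CPM, and the part of this in the hypoxia response genes was not tested. At day 3, 2 of the 40 cells gave 69.7% of the UMIs, at day 7, 7 of the 55 cells gave 71.9%, and the summed cell cycle genes were 4189 and 936 CPM. Whether these cells set the level of Pgk1 was not tested. The 24 cells of day 14 held monocyte/macrophage markers at 11257 CPM, against 587 and 968 CPM before, so their values are not described gene by gene, although this sum is in the plot of levels and in the correlations given next. In them 1 of 6 members was lower than at day 3 by 2 times and none was higher, against 30.4% and 11.8% of 2239 genes.

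Across the 27 class-by-day sums, the genes outside the list that ran most like the mean of the 10 on the log2(CPM + 10) scale were Slc16a3 (Pearson r = 0.83), Gapdh (r = 0.80) and Spp1 (r = 0.80), among 6819 genes. The sums of a day share a library, and the correlations are a description. Spp1 encodes osteopontin, a secreted matrix protein. Among the members, Pkm followed the mean of the others most closely (r = 0.82), and Pfkl (r = 0.06), Hk2 (r = 0.18), Bnip3 (r = 0.19) and Ldha (r = 0.23) followed it least. Bnip3 ran most against Pfkl (r = -0.49) and Ldha (r = -0.41), and Hk2 most against Pgk1 (r = -0.38).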

How the data were processed

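The deposited matrices hold raw counts of UMIs per gene and cell barcode, without normalization, made by the authors with a droplet 3′ kit and Cell Ranger (version 3.0.2 per the file headers, while the methods of the study name another). The mouse genome build is not given in a usable form in the sources used here, and the reads were not realigned. A barcode was dropped where it had under 200 genes or where mitochondrial transcripts made up over 20% (453 dropped). Scrublet (scanpy 1.11.5) marked 17 barcodes by its own threshold, 0.276%, too few to be used. The highest scores were therefore removed at 0.8% per 1000 barcodes of a library (106 barcodes). Cells of all libraries were clustered together (2000 variable genes, 30 components, 15 neighbours, Leiden at resolution 1, igraph 0.11.9), leaving out the genes of all lists. A cluster was named from at least 3 markers of a class (at least 50 CPM, 10% of cells and 3 times the lower quartile of clusters, with no other class leading its 10 genes by fold), and clusters with a median under 0.333 of their library's needed 2 leading markers. Those rules were set after the clusters were seen, so that classes can differ from those of the study on account of this naming. Dividing cells took the class of their nearest neighbours. Aldoa is listed on 2 identifiers, of which the one with 23013 UMIs was used, the other having 3. Reads of Eno1 and its near-identical copy Eno1b (29 UMIs against 13945) could be split by the counting.

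UMIs were summed over the cells of a class and day with at least 15 cells and given as CPM with exact Poisson intervals. Ratios carry exact Clopper-Pearson intervals of the share of UMIs. Genes with a mean of at least 20 CPM over both sums and at least 20 UMIs were compared, a sum of 0 UMIs being set to 3, and a ratio of at least 2 or at most 0.5 was counted as passing. The ratio calculation was tested on simulated data. The members, the lists of other genes and the comparisons were chosen with earlier results of these data known. Genes of the other lists are named where they passed 2 times with at least 50 CPM in one of the sums (at most 4 per list and direction), besides the isoenzymes of the members.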

Additional observations from a re-analysis of the deposited data

How the results depend on the processing

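No paired analysis was possible because each day had 1 library. In fibroblast-like cells, most of the day 3 result rested on cells with over 30000 UMIs. Leaving them out also removed 96.7% of the UMIs of the Saa3 cluster on that day. The 119 cells left had a median of 935 UMIs, against 10167 at day 0. Depth and cluster mix were therefore not separated. Without the deep cells the median log2 ratio of the members to day 0 was 0.12 and 1 member was at least 2 times higher, against 1.32 and 5 with all cells. In cells of 5000 to 30000 UMIs, a setting chosen after seeing the data, these were 0.18 and 1. As means of the CPM of each cell they were 0.67 and 2, and with no minimum level the median was 1.03. At day 7 the median of 0.45 became 0.19 as a mean over cells, -0.0085 without the deep cells and 0.029 in cells of 5000 to 30000 UMIs, and 4 members passed a fold of 1.5. At day 14, Hk2 alone, 1 member in place of 2, was higher without the deep cells, in cells of 5000 to 30000 UMIs and with 10 CPM added. The falls of Eno1, Pgk1 and Ldha past 2 times from day 3 to day 14 in fibroblast-like and in smooth muscle-like cells were lost without the deep cells, in a comparison added with the data in view. The smooth muscle-like median of day 7 to day 3, 0.24, became -0.027 as a mean over cells, -0.38 without the deep cells and -0.36 in cells of 5000 to 30000 UMIs. The monocyte/macrophage-like median of day 7 to day 3, -0.10, became -0.26 as a mean over cells, -0.18 with doublets kept, -0.24 without the deep cells and -0.24 in cells of 5000 to 30000 UMIs, and 1 member was lower at a fold of 1.5. That of day 14 to day 3, -0.94, became -0.70 as a mean over cells, and 6 members were lower at a fold of 1.5. The cause of these shifts was not tested. The counts of members at these other settings are given without the share of all genes, so they are not read against it. The other 123 values of the main comparisons stayed within the limits set for a change. Of the counts of members and the secondary comparisons, 420 values did so, 112 moved past them and 3 reversed, all 3 in the median of day 7 to day 3 in smooth muscle-like cells. Day 0 of smooth muscle-like cells had too few cells to be computed when libraries were clustered alone or cells under 2000 UMIs were left out. Depth limits Slc2a1, Pfkl and Bnip3 most.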
